A study of Homo sapiens with 6 samples.

Results

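The genes of the unfolded protein response and the integrated stress response were followed in PC-3 cells with and without overexpression of BHLHE22. The 38 genes were chosen by name as known parts of these pathways, out of 58302 genes in the deposited table. They were grouped by role into an ATF4 branch of 9 genes, 14 chaperones and foldases of the endoplasmic reticulum (ER), 9 genes of ER-associated degradation (ERAD) and 6 stress sensors and regulators. PC-3 is an established human prostate cancer line. The BHLHE22 group held 3 libraries of PC-3 cells in which a lentivirus drove overexpression of BHLHE22, a transcription factor of the basic helix-loop-helix family, and the vector group held 3 libraries of PC-3 cells given a blank lentivirus. The sources used here give neither the number of cultures behind each set of 3 nor whether infected cells were kept as pools or clones. The p-values thus rest on library-to-library spread, and that spread may be technical.

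Cells sense misfolded protein in the ER through membrane proteins, among them IRE1 (gene ERN1), PERK (EIF2AK3) and ATF6. IRE1 splices the mRNA of the transcription factor XBP1, ATF6 is cut to release a transcription factor, and PERK phosphorylates the translation factor eIF2alpha. The kinases GCN2 (EIF2AK4), PKR (EIF2AK2) and HRI (EIF2AK1) phosphorylate the same site in response to amino acid shortage, double-stranded RNA, and haem shortage or mitochondrial stress. Phosphorylated eIF2alpha slows protein synthesis in general while the mRNA of ATF4 is translated more, and ATF4 then switches on genes of amino acid supply and of feedback. Counts per gene show neither the splicing of XBP1 nor phosphorylation, cleavage or translation. In bulk RNA, fewer cells that express a gene and less RNA per cell cannot be told apart.

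Read counts summed to between 12186723 and 15949537 per library. BHLHE22 had 98, 92 and 133 reads in the BHLHE22 libraries, against 1 read in every vector library. The epithelial keratin and EPCAM markers summed to 1672 to 1831 CPM, reads of a gene scaled to the library's size, in BHLHE22 libraries and 1293 to 1449 CPM in vector libraries. These genes went both ways, with KRT7 and EPCAM called higher, KRT8 and KRT18 called lower and KRT19 not called. KLK3 had 0 counts in all libraries. Of 5 blood cell markers, 3 had 0 counts throughout, and the list summed to 0.600 to 0.933 CPM in BHLHE22 and 1.66 to 1.97 CPM in vector libraries. Of the blood list only CD79A was tested, and it was called lower. Endothelial markers, of which only PECAM1 was tested, summed to 19.2 to 26.2 CPM in BHLHE22 and 50.01 to 64.7 CPM in vector libraries. Fibroblast markers summed to 50.2 to 52.3 CPM in BHLHE22 and 69.6 to 79.9 CPM in vector libraries. COL1A1 made up most of that sum, with means of 47.6 CPM in BHLHE22 and 65.9 CPM in vector libraries. The fibroblast genes went both ways, with COL1A1 and COL3A1 called lower, LUM called higher and COL1A2 and DCN not tested. The part of these markers in the results was not tested. Of 15945 tested genes 49.4% were called, which means an adjusted p under 0.05 in edgeR's quasi-likelihood test with Benjamini-Hochberg adjustment over all tested genes.

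Most of the stress response genes that differed were lower in BHLHE22 cells. Of the 37 members that passed the filter on low counts, 18 (48.6%) fell, 5 (13.5%) rose and 14 were not called. Over all tested genes, 24.3% fell and 25.1% rose. The median log2 fold change (BHLHE22 over vector) of the members was -0.33, against 0.00 for all tested genes. Without vector replicate 1, 3 members rose, as without BHLHE22 replicate 1, and 2 rose without vector replicate 2 or BHLHE22 replicate 2. The libraries of the groups did not overlap for 26 members (70.3%), 21 of them below and 5 above the vector range. That was the case for 60.5% of all tested genes, 29.9% below and 30.6% above. With unscaled library sizes, which moved the median of all tested genes by 0.15, the members split into 14 lower and 7 higher with a median of -0.18, and the share of higher genes among all calls was 64.0% in place of 50.7%.

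**Figure D1:**
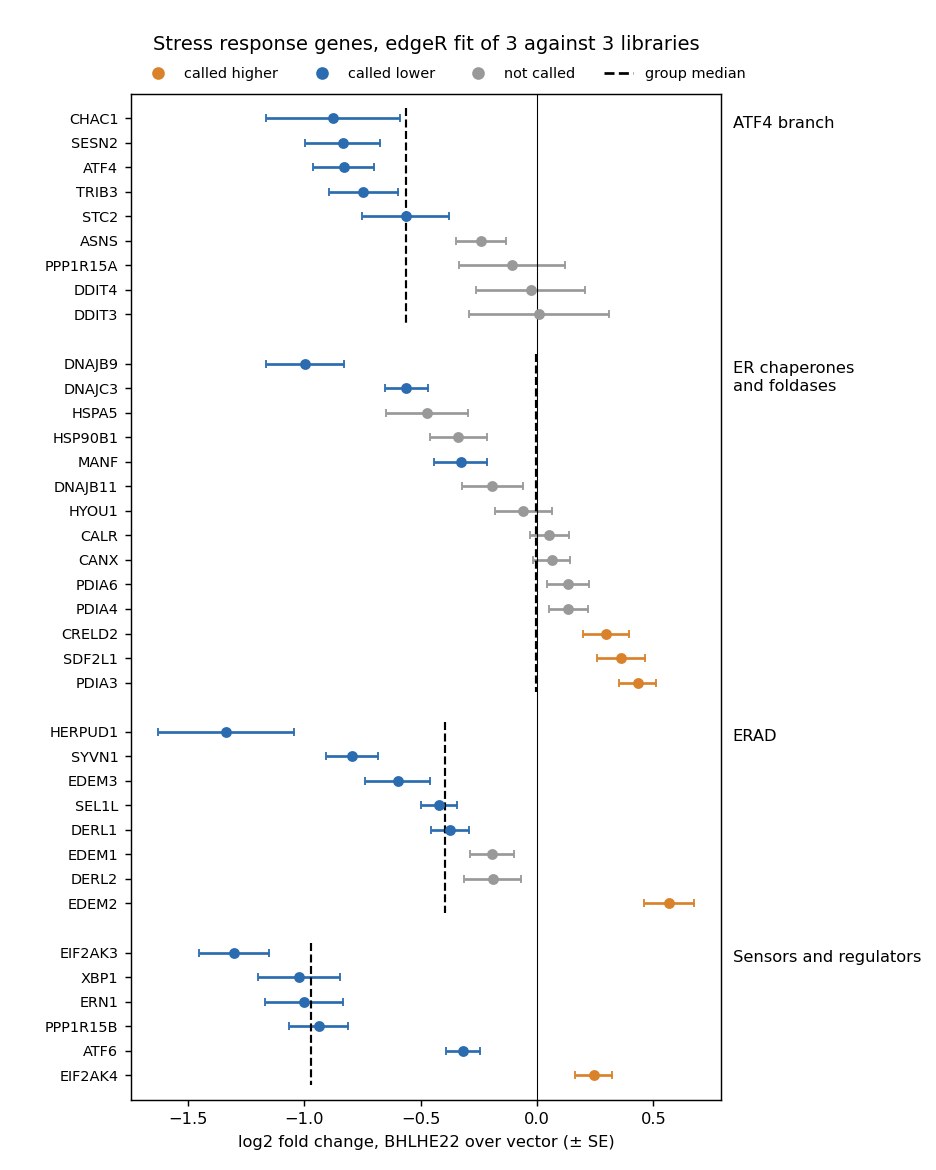
Log2 fold change (BHLHE22 over vector) with its standard error for the 37 tested members, by role; colour marks the call and the dashed line the median of each role. The medians are -0.56 for the ATF4 branch, 0.00 for the chaperones and foldases (0.14 with unscaled library sizes), -0.40 for ERAD and -0.97 for the sensors and regulators.

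In the ATF4 branch 5 of 9 genes fell and 0 rose, with a median log2 fold change of -0.56; DESeq2 and limma-voom also gave 0 rises, and no member of the branch rose at an unadjusted p under 0.05 in edgeR. Without vector replicate 1, or without vector replicate 2, 3 of the 9 fell. Among the 14 chaperones and foldases 3 fell and 3 rose, with a median of 0.00 that became 0.14 with unscaled library sizes. The count of rises was 1 without vector replicate 2, BHLHE22 replicate 1 or BHLHE22 replicate 2, and 5 fell without BHLHE22 replicate 1. Of all tested genes 24.3% fell and 25.1% rose, near the 21.4% each way of the chaperones and foldases. In the ATF4 branch 55.6% fell. The libraries of the groups did not overlap for 5 of its genes (55.6%), all below the vector range, and overlapped for 4. Without overlap, 29.9% of all tested genes lay below and 30.6% above. Summed over the 9 genes, the ATF4 branch held 812, 789 and 799 CPM in BHLHE22 replicates 1 to 3, against 1260.3, 1323 and 913 CPM in vector replicates 1 to 3. In this sum every BHLHE22 library was below every vector library, with vector replicate 3 nearest to them. ATF4 and STC2 weighed most in it, with means of 395 and 309 CPM in vector libraries. By the median over the 9 genes of log2(CPM over the vector mean), BHLHE22 replicate 3 (-0.376) and vector replicate 3 (-0.374) were nearly equal. The chaperones and foldases summed to 5902, 5198 and 4803 CPM in BHLHE22 libraries, against 5759.5, 5635 and 5562 CPM in vector libraries. These ranges overlapped, with BHLHE22 replicate 1 above all vector libraries and the other two below them. The difference between these gene groups was not tested.

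**Figure D2:**
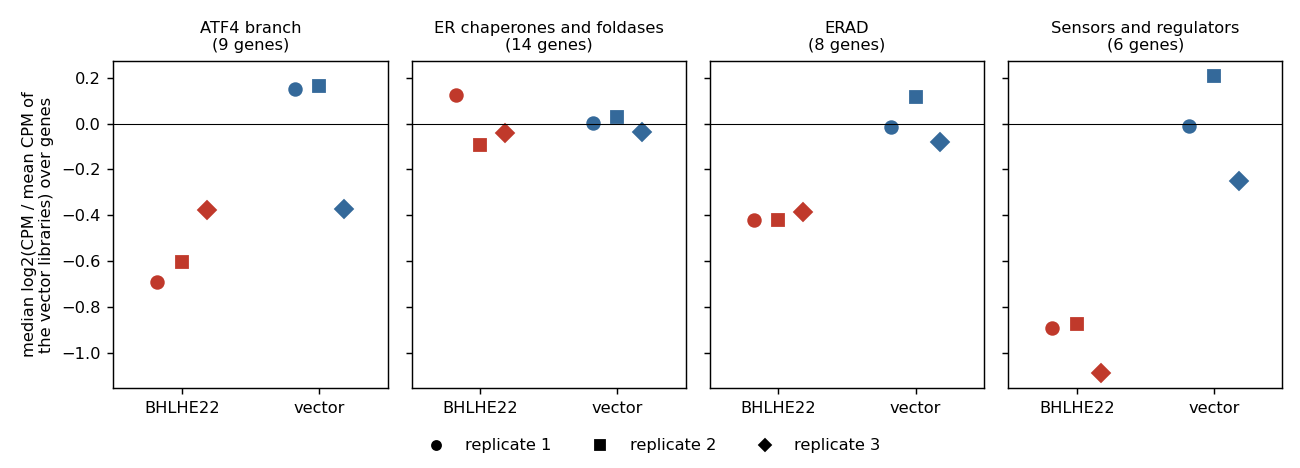
For each library, the median over the genes of a role of log2(CPM over the mean CPM of the vector libraries); symbols mark the replicate. For the ATF4 branch the BHLHE22 libraries lie between -0.69 and -0.38 and the vector libraries at 0.15, 0.16 and -0.37, while for the chaperones and foldases all 6 libraries lie between -0.09 and 0.12 (their median fold change is 0.00, or 0.14 with unscaled library sizes).

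Among the sensors and regulators 5 of 6 genes (83.3%) fell and 1 (16.7%) rose, with a median log2 fold change of -0.97. For all tested genes these shares were 24.3% and 25.1%. EIF2AK3, the gene of PERK, had 36.1, 37.8 and 31.7 CPM in BHLHE22 libraries, against 81.5, 105.5 and 73.4 CPM in vector libraries. Its highest BHLHE22 library lay well under its lowest vector library. The log2 fold change was -1.30 (SE 0.15, edgeR adjusted p = 0.000494), the largest fall of the 6. ERN1, which encodes the kinase and nuclease IRE1, had 126, 118 and 98.8 CPM in BHLHE22 libraries, against 242, 268 and 176 CPM in vector libraries. XBP1, whose mRNA IRE1 splices, had 55.8, 60.4 and 41.5 CPM in BHLHE22 libraries, against 112, 122 and 86.3 CPM in vector libraries. Neither gene's groups overlapped, and the log2 fold changes were close to each other at -1.002 for ERN1 (SE 0.17, edgeR adjusted p = 0.00252) and -1.02 for XBP1 (SE 0.18, edgeR adjusted p = 0.00282). ATF6 averaged 149.6 ± 4.7 CPM in BHLHE22 libraries and 186 ± 5.7 CPM in vector libraries (SD, n = 3 each), a log2 fold change of -0.32 (SE 0.07, edgeR adjusted p = 0.00789). With unscaled library sizes its log2 fold change was -0.17 and the adjusted p 0.0787.

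The kinases of eIF2alpha went in different directions. EIF2AK3 fell as above, and so did EIF2AK1 (HRI), with 259 ± 10.3 CPM in BHLHE22 libraries and 464 ± 20.6 CPM in vector libraries (SD, n = 3 each; log2 fold change -0.84 ± 0.07 SE, edgeR adjusted p = 0.0002). EIF2AK2, the gene of the interferon-inducible kinase PKR, averaged 316 ± 37.6 CPM in BHLHE22 libraries and 167 ± 3.7 CPM in vector libraries (log2 fold change 0.92 ± 0.10 SE, edgeR adjusted p = 0.000376). EIF2AK4, the gene of the amino acid sensor GCN2, had 223, 236 and 238 CPM in BHLHE22 libraries, against 198, 182 and 209 CPM in vector libraries. Its groups did not overlap, and the log2 fold change was 0.24 (SE 0.08, edgeR adjusted p = 0.0361). That call ended without vector replicate 1 (adjusted p = 0.0876), vector replicate 2 (0.0870), BHLHE22 replicate 2 (0.118) or BHLHE22 replicate 3 (0.0844). In deposited FPKM, EIF2AK1 had the highest value of the 4 kinase genes in both groups, 32.1 ± 1.2 in BHLHE22 and 52.0 ± 1.0 in vector libraries. EIF2AK3 had the lowest, 4.79 ± 0.41 in BHLHE22 and 10.6 ± 1.75 in vector libraries, although in vector libraries EIF2AK2 (11.2 ± 0.3) lay within its spread. EIF2AK4 had 16.9 ± 0.6 FPKM in BHLHE22 and 12.9 ± 1.2 FPKM in vector libraries, and EIF2AK2 had 23.4 ± 2.9 FPKM in BHLHE22 libraries.

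Of the genes of the regulatory phosphatase subunits that direct the removal of eIF2alpha phosphorylation, 1 fell and 1 was not called. PPP1R15B, which encodes the constitutive subunit CReP, had 237, 235 and 229 CPM in BHLHE22 libraries, against 430.4, 539 and 375 CPM in vector libraries. The BHLHE22 libraries were almost equal while the vector libraries were spread, without overlap (log2 fold change -0.94 ± 0.13 SE, edgeR adjusted p = 0.000991). PPP1R15A, the stress-induced subunit GADD34 and a target of ATF4, had 91.5, 94.8 and 89.5 CPM in BHLHE22 libraries, against 123, 109.8 and 64.1 CPM in vector libraries. The BHLHE22 values lay inside the vector range and the gene was not called (log2 fold change -0.11 ± 0.23 SE, edgeR adjusted p = 0.722). Without vector replicate 3 its log2 fold change was -0.34 (adjusted p = 0.0195), and without vector replicate 1, or with unscaled library sizes, it was 0.08 and 0.04, so that its direction turned.

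ATF4 itself (ENSG00000128272, chromosome 22, 39519695 to 39522685, GRCh38) had 245, 219.5 and 203 CPM in BHLHE22 libraries, against 414, 447 and 325 CPM in vector libraries. All 3 BHLHE22 libraries were lower than all 3 vector libraries. The log2 fold change was -0.83 (SE 0.13, edgeR adjusted p = 0.00181), and it stayed between -0.95 and -0.68 in the other fits tried. The pseudogene ATF4P3, with which reads could be shared, had 849 reads over all libraries against 26246 for ATF4. TRIB3, a pseudokinase gene that ATF4 induces and whose product restrains ATF4, had 60.6, 60.7 and 70.0 CPM in BHLHE22 libraries, against 114, 123 and 84.0 CPM in vector libraries (log2 fold change -0.75 ± 0.15 SE, edgeR adjusted p = 0.00459). SESN2, the gene of the leucine sensor sestrin 2, had 18.3, 18.8 and 16.8 CPM in BHLHE22 libraries, against 35.5, 35.8 and 24.7 CPM in vector libraries (log2 fold change -0.83 ± 0.16 SE, edgeR adjusted p = 0.00414). In these genes vector replicate 3 was the lowest vector library and still above every BHLHE22 library.

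CHAC1 and STC2 also fell, with calls that depended on single libraries and on the processing. CHAC1, which encodes an enzyme that breaks down glutathione, had 9.44, 20.2 and 20.5 CPM in BHLHE22 libraries, against 28.97, 27.9 and 35.4 CPM in vector libraries. BHLHE22 replicate 1 was the lowest library, and the groups did not overlap (log2 fold change -0.88 ± 0.29 SE, edgeR adjusted p = 0.0407). The adjusted p was 0.0777, 0.0807 and 0.113 without vector replicates 1, 2 and 3 in turn, and 0.0502 without BHLHE22 replicate 3. For CHAC1 it was 0.0743 with unscaled library sizes and 0.0975 without the low-count filter. STC2, the gene of the secreted glycoprotein stanniocalcin 2, had 186, 200.1 and 239.6 CPM in BHLHE22 libraries, against 321, 375 and 230.0 CPM in vector libraries. Vector replicate 3 lay below BHLHE22 replicate 3, so the groups overlapped (log2 fold change -0.56 ± 0.19 SE, edgeR adjusted p = 0.0398). That call ended without vector replicate 1 (adjusted p = 0.1001), vector replicate 2 (0.109), BHLHE22 replicate 1 (0.118) or BHLHE22 replicate 2 (0.105). The adjusted p of STC2 was 0.0809 with unscaled library sizes and 0.0797 without the low-count filter.

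The other 4 genes of the branch were not called. DDIT3, which encodes the pro-apoptotic factor CHOP, had 38.2, 18.7 and 26.1 CPM in BHLHE22 libraries, against 33.0, 29.9 and 19.5 CPM in vector libraries. The groups overlapped almost fully (log2 fold change 0.01 ± 0.30 SE, edgeR adjusted p = 0.982), and its SE is the largest of all members. On GENCODE release 29, 27.2% of its exonic bases lie opposite exons of MARS, the methionyl-tRNA synthetase gene, which had 16691 reads over all libraries against 2339 for DDIT3. Whether the counting used strand is not given in the sources used here, so reads of the 2 genes cannot be told apart there. DDIT4, a stress-induced inhibitor of mTORC1 signalling, had a log2 fold change of -0.03 (SE 0.23), and PPP1R15A is given above. Neither DDIT3 nor DDIT4 kept its direction: over the other fits DDIT3 ranged from -0.29 (without BHLHE22 replicate 1) to 0.23 (without BHLHE22 replicate 2), and DDIT4 from -0.25 (without vector replicate 3) to 0.12 (with unscaled library sizes). ASNS, which encodes asparagine synthetase, had 72.2, 74.7 and 64.0 CPM in BHLHE22 libraries, against 92.9, 79.0 and 77.1 CPM in vector libraries. Its groups did not overlap, but the difference did not pass (log2 fold change -0.24 ± 0.11 SE, edgeR adjusted p = 0.0947).

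**Figure D3:**
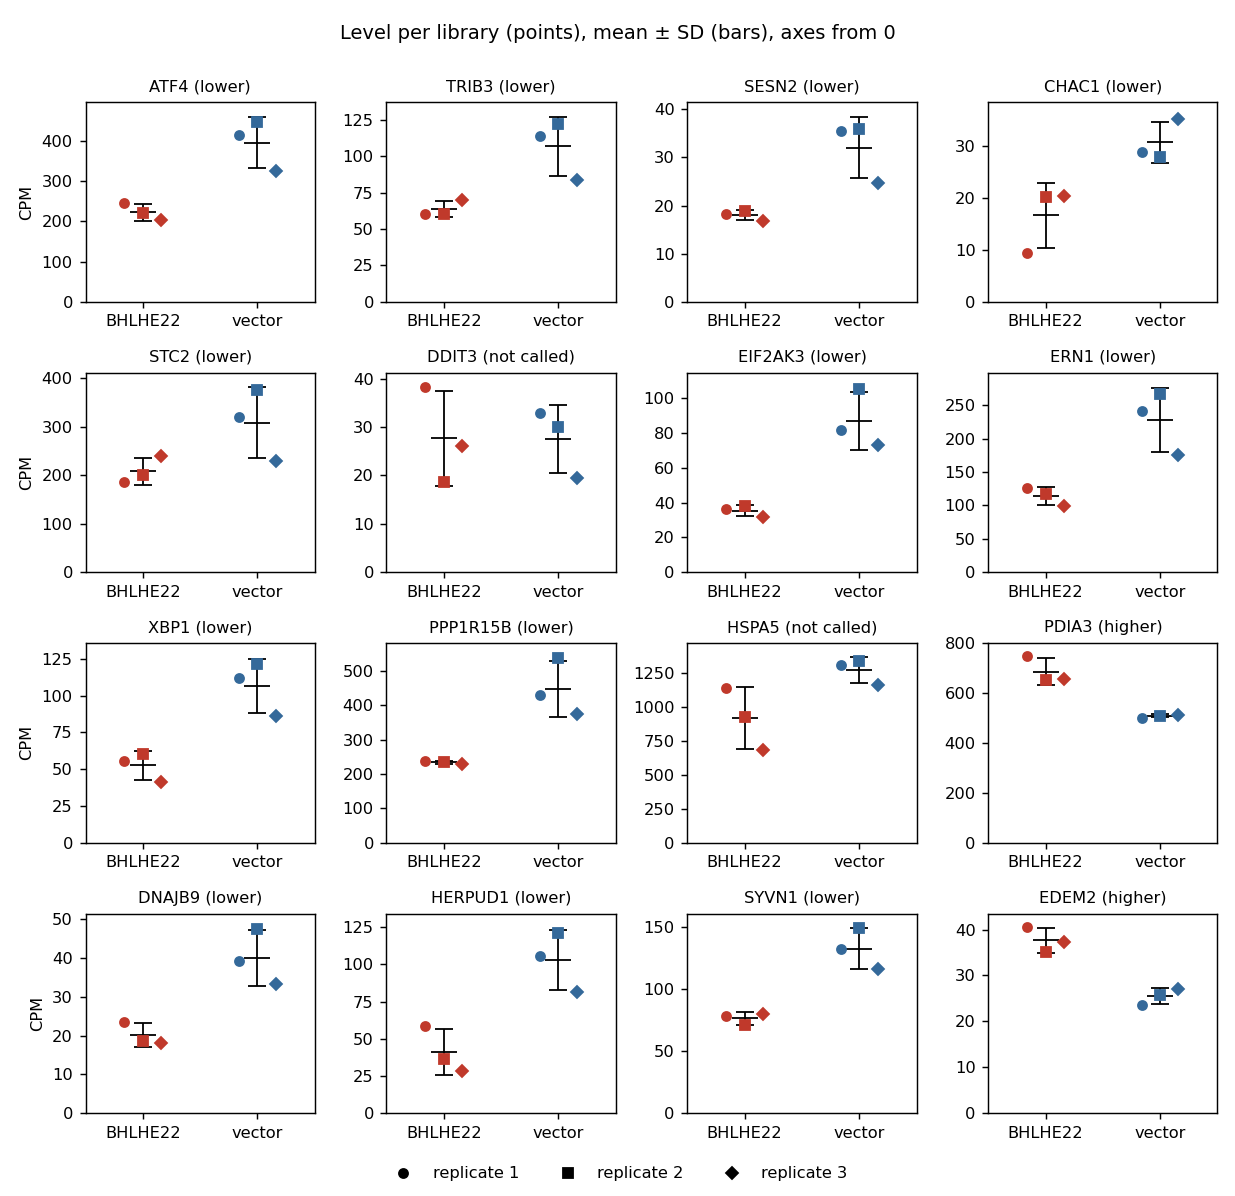
CPM per library (points, with the symbol marking the replicate) and mean ± SD (bars, n = 3 per group) of 16 members, BHLHE22 on the left and vector on the right, with the call in the title. In ATF4, TRIB3, SESN2, ERN1 and XBP1 vector replicate 3 is the lowest vector library yet above the BHLHE22 libraries, and PDIA3 and EDEM2 are higher in BHLHE22 libraries.

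Of the chaperones that bind unfolded chains in the ER, HSPA5 and HSP90B1 were lower in every BHLHE22 library than in every vector library without passing the test, and CALR, CANX and HYOU1 overlapped between the groups. HSPA5, which encodes BiP, the ER form of HSP70 and the standard reporter of ER stress, had 1143, 924 and 687 CPM in BHLHE22 libraries, against 1309, 1342 and 1163 CPM in vector libraries. The BHLHE22 libraries were spread widely, with replicate 1 close to the vector range (log2 fold change -0.47 ± 0.18 SE, edgeR adjusted p = 0.0609). Without BHLHE22 replicate 1 the log2 fold change was -0.66 and the adjusted p 0.0109, and it passed with DESeq2 (0.0259) and limma-voom (0.0461). HSP90B1, the gene of the ER form of HSP90, had 1002, 884 and 731 CPM in BHLHE22 libraries, against 1167, 1010.1 and 1132 CPM in vector libraries (log2 fold change -0.34 ± 0.12 SE, edgeR adjusted p = 0.0507). Its adjusted p was 0.0199 without BHLHE22 replicate 1, and between 0.0374 and 0.0488 with DESeq2, limma-voom, DESeq2's size factors or either other filter. CALR and CANX, the lectin chaperones calreticulin and calnexin, had log2 fold changes of 0.05 (SE 0.08) and 0.06 (SE 0.08) and were not called. HYOU1, a chaperone of the HSP70 superfamily, had -0.06 (SE 0.12), or 0.09 with unscaled library sizes, and was not called.

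The J-domain cochaperones of BiP were lower or not called. DNAJB9, which encodes ERdj4, had 23.6, 18.7 and 18 CPM in BHLHE22 libraries, against 39.3, 47.5 and 33.2 CPM in vector libraries. The groups were far apart (log2 fold change -0.996 ± 0.17 SE, edgeR adjusted p = 0.00227). DNAJC3, whose product p58IPK binds BiP and inhibits PERK and PKR, had 57.4, 57.2 and 62.6 CPM in BHLHE22 libraries, against 85.4, 95.3 and 80.7 CPM in vector libraries (log2 fold change -0.56 ± 0.09 SE, edgeR adjusted p = 0.00224). DNAJB11 had a log2 fold change of -0.19 (SE 0.13) and was not called. MANF, a secreted ER stress protein that binds BiP, averaged 145 ± 22.5 CPM in BHLHE22 and 182 ± 5.0 CPM in vector libraries (SD, n = 3 each; log2 fold change -0.33 ± 0.11 SE, edgeR adjusted p = 0.0453). Its call ended without vector replicates 1, 2 or 3 (adjusted p = 0.112, 0.108 and 0.0743 in turn) and without BHLHE22 replicates 2 or 3 (0.123 and 0.110). With unscaled library sizes the adjusted p of MANF was 0.214.

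The chaperones and foldases that rose were PDIA3, SDF2L1 and CRELD2. PDIA3, which encodes the disulfide isomerase ERp57 that works with calreticulin and calnexin, had 750.5, 654 and 656 CPM in BHLHE22 libraries, against 502, 510.4 and 514 CPM in vector libraries. Every BHLHE22 library was above the narrow vector range (log2 fold change 0.43 ± 0.08 SE, edgeR adjusted p = 0.00338). The near-identical copy PDIA3P1 had 216, 206 and 207 CPM in BHLHE22 libraries, against 160.3, 153 and 149 CPM in vector libraries, so reads may be divided between them and the level of PDIA3 is uncertain. PDIA4 and PDIA6, other disulfide isomerase genes, had log2 fold changes of 0.14 (SE 0.08) and 0.13 (SE 0.09) and were not called, but with unscaled library sizes their adjusted p was 0.0243 and 0.0371. SDF2L1, a component of the BiP chaperone complex, averaged 27.4 ± 1.7 CPM in BHLHE22 and 21.3 ± 0.9 CPM in vector libraries (log2 fold change 0.36 ± 0.10 SE, edgeR adjusted p = 0.0225). CRELD2, a secreted ER stress protein, averaged 29.7 ± 1.6 CPM in BHLHE22 and 24.2 ± 0.5 CPM in vector libraries (log2 fold change 0.30 ± 0.10 SE, edgeR adjusted p = 0.0369). The call of SDF2L1 ended without vector replicate 2 (adjusted p = 0.0546), BHLHE22 replicate 1 (0.0648) or BHLHE22 replicate 2 (0.0728). The adjusted p of CRELD2 was 0.0609 with DESeq2 and 0.0754 without the low-count filter. Its call also ended without vector replicate 1 (adjusted p = 0.102), 2 (0.0605) or 3 (0.0631) and without BHLHE22 replicate 1 (0.10001) or 2 (0.0937).

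ERAD moves misfolded proteins out of the ER for destruction by the proteasome. Of its 8 tested genes 5 (62.5%) fell, 1 (12.5%) rose and 2 were not called, against 24.3% falls and 25.1% rises over all tested genes. The median log2 fold change of the 8 was -0.40 (-0.25 with unscaled library sizes). HERPUD1, which encodes a ubiquitin-like membrane protein that organises the ERAD complex, had 58.2, 36.2 and 28.1 CPM in BHLHE22 libraries, against 106, 121 and 81.6 CPM in vector libraries. The groups did not overlap, and its log2 fold change of -1.34 was the lowest of all members (SE 0.29, edgeR adjusted p = 0.0106). SYVN1, the gene of the ERAD ubiquitin ligase HRD1, had 78.4, 70.8 and 80.3 CPM in BHLHE22 libraries, against 132, 149.5 and 116 CPM in vector libraries (log2 fold change -0.79 ± 0.11 SE, edgeR adjusted p = 0.00102). SEL1L, the partner that stabilises HRD1, averaged 182 ± 9.4 CPM in BHLHE22 and 244 ± 11.3 CPM in vector libraries (log2 fold change -0.42 ± 0.08 SE, edgeR adjusted p = 0.0034). DERL1, a membrane protein of the export channel, averaged 177 ± 13.1 CPM in BHLHE22 and 229 ± 5.8 CPM in vector libraries (log2 fold change -0.37 ± 0.08 SE, edgeR adjusted p = 0.00675). In SYVN1, 7.24% of the exonic bases are shared with exons of FAU on the same strand.

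The EDEM genes, which encode proteins of mannose trimming that mark glycoproteins for ERAD, did not move together. EDEM2 had 40.6, 35.2 and 37.4 CPM in BHLHE22 libraries, against 23.6, 25.6 and 27.0 CPM in vector libraries. It was the ERAD member that rose (log2 fold change 0.57 ± 0.11 SE, edgeR adjusted p = 0.00366). EDEM3 had 71.3, 74.5 and 71.0 CPM in BHLHE22 libraries, against 120.4, 123 and 85.2 CPM in vector libraries, without overlap (log2 fold change -0.60 ± 0.14 SE, edgeR adjusted p = 0.00974). EDEM1, known as an XBP1 target, was lower in every BHLHE22 library but not called (log2 fold change -0.19 ± 0.10 SE, edgeR adjusted p = 0.131). DERL2 had a log2 fold change of -0.19 (SE 0.12) and was not called. DERL3 had 0 counts in all 6 libraries, which by a floor of 3 counts allows up to 0.180 to 0.234 CPM per library, for counting error only. On GENCODE release 29, 77% of the exonic bases of DERL3 lie opposite exons of SMARCB1, and how reads there were assigned is not given in the sources used here.

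The deposited FPKM values divide by a length per gene. For some members, CALR among them, that length is longer than the exonic length, so the order of genes by RNA level is uncertain. The FPKM values are not scaled as the CPM are, so their ratios between the groups differ from the fold changes above. CALR and HSPA5 had the highest deposited FPKM of the members. In BHLHE22 libraries they had 249 ± 19.8 and 247 ± 61.2 FPKM (SD, n = 3). In vector libraries they had 217 ± 13.0 and 308 ± 16.4 FPKM (SD, n = 3). These FPKM values lay within each other's SD in BHLHE22 libraries. In vector libraries they lay apart by more than their SDs, with HSPA5 above CALR. That order may not hold for RNA level, given the length used for CALR. PDIA4, PDIA3, HSP90B1 and PDIA6 had between 101 and 147 FPKM in BHLHE22 libraries and between 83.0 and 136 FPKM in vector libraries. ATF4, with 56.7 ± 5.4 FPKM in BHLHE22 and 90.8 ± 12.4 FPKM in vector libraries, ranked 7 of 37 in BHLHE22 and 5 of 37 in vector libraries, where PDIA3, PDIA6 and PPP1R15B lay within its SD. The other genes of the ATF4 branch had between 3.07 and 30.9 FPKM in BHLHE22 and between 4.95 and 41.1 FPKM in vector libraries. HYOU1 had the lowest FPKM of the 37, with 1.24 ± 0.14 FPKM in BHLHE22 and 1.17 ± 0.03 FPKM in vector libraries.

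**Figure D4:**
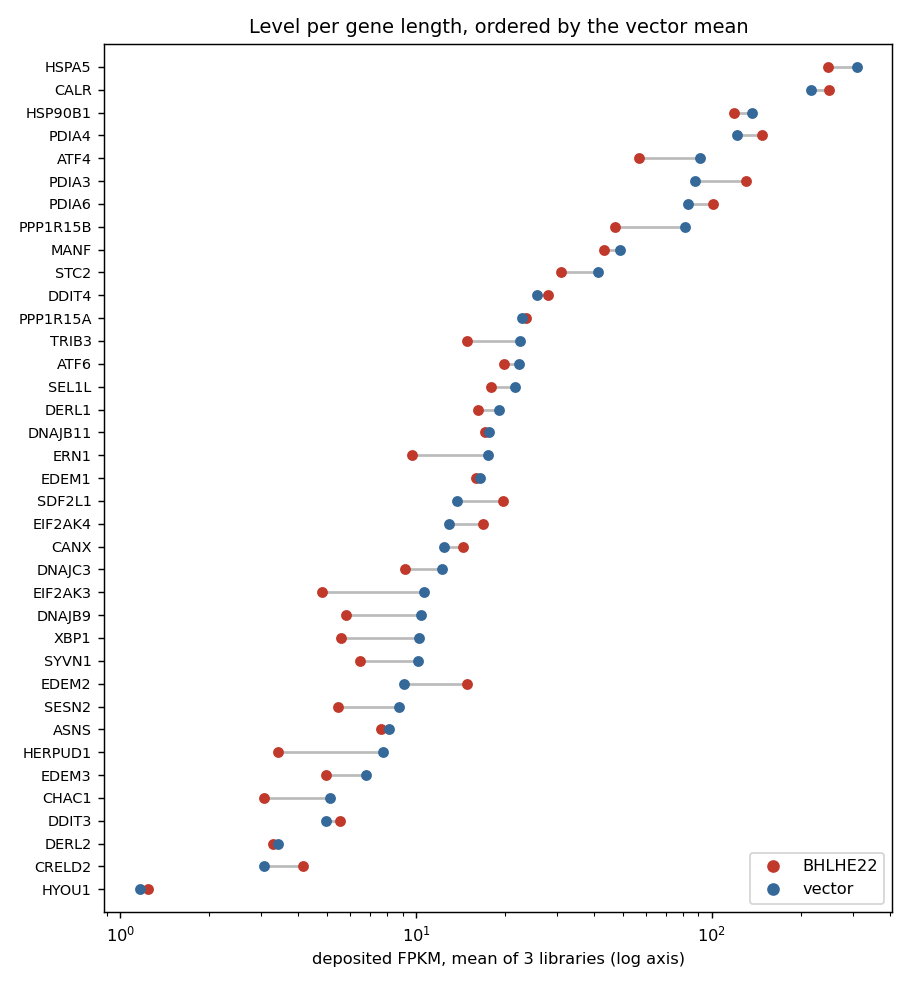
Mean deposited FPKM (log axis) of the 37 tested members in BHLHE22 and vector libraries, joined by a line and ordered by the vector mean. The chaperones and foldases fill most of the top, from 308 FPKM for HSPA5 in vector libraries, and EIF2AK3, ERN1, XBP1 and HERPUD1 have the widest gaps. For some members the length behind the FPKM is longer than the exonic length, so the order of genes by RNA level is uncertain.

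Replicates of the vector group were not alike for these genes. Vector replicate 3 was the lowest vector library for 27 of 37 members, 8 of them among the 9 genes of the ATF4 branch, and vector replicate 2 was the highest for 23. The median coefficient of variation of the ATF4 branch was 9.63% in BHLHE22 and 19.8% in vector libraries, and that of the sensors and regulators 6.18% in BHLHE22 and 17.9% in vector libraries. For the chaperones and foldases it was 8.87% in BHLHE22 and 4.57% in vector libraries, and for all tested genes 10.9% in BHLHE22 and 11.7% in vector libraries. In the BHLHE22 group replicate 1 had the highest level of 12 of the 14 chaperones and foldases. Whether a difference in culture or handling set these libraries apart was not tested.

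Other genes of these pathways, which are not among the 38, were counted by list. Of 46 tested targets and partners of ATF4, 22 (47.8%) fell, 4 (8.70%) rose and 20 were not called. Falls made up 24.3% and rises 25.1% of all tested genes. The median log2 fold change of the 46 was -0.32 (-0.18 with unscaled library sizes). The 4 called genes of this list with the smallest p were the neutral amino acid transporter gene SLC38A2 at a log2 fold change of -2.24, the proline synthesis gene PYCR1 at -1.13, the glycine transporter gene SLC6A9 at -1.47 and the cystine transporter gene SLC7A11 at -1.01. Among the falls of larger size, named after their values were seen, were those of GDF15 (-2.55), which encodes a secreted stress cytokine, KLHL24 (-1.90) and NUPR1 (-1.89). The 4 that rose, named after their values were seen, were the transcription factor genes ATF3 (1.22) and ATF5 (0.95), the leucine transporter gene SLC7A5 (0.66) and the translation repressor gene EIF4EBP1 (0.42). Among 17 genes of eIF2alpha kinases and eIF2 function, 4 (23.5%) fell and 3 (17.6%) rose (median -0.02, or 0.13 with unscaled library sizes). In that list 6 rose without vector replicate 3 or with unscaled library sizes. Next to EIF2AK1 and EIF2AK2, EIF2S1, the gene of eIF2alpha, and EIF2B3, a subunit gene of its exchange factor, had log2 fold changes of 0.74 and 0.85.

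Genes of ER import, folding and export were lower more often than higher. Of 50 tested, 18 fell, 7 rose and 25 were not called (median log2 fold change -0.14, or 0.00 and 12 rises with unscaled library sizes). Among all tested genes 24.3% fell, 25.1% rose and 49.4% were called. Against these shares, falls were more frequent in this list and rises less frequent, while calls in either direction were about as frequent. KDELR3 and KDELR2, receptors that return escaped chaperones to the ER, had log2 fold changes of -1.62 and -0.80, the prolyl isomerase gene FKBP14 -1.25 and the cargo receptor gene LMAN1 -0.93. Of 22 other ERAD genes 9 (40.9%) fell and 2 (9.09%) rose (median -0.10, or 0.04 and 4 rises with unscaled library sizes). ERLEC1 and OS9, related lectins that pass glycoproteins to HRD1, moved apart, at -0.66 and 0.56 in log2 fold change, as did the ubiquitin ligase MARCHF6 at -0.48 and the UFM1 ligase UFL1 at 0.67. Of 18 membrane-bound factors, processing and death genes 3 (16.7%) fell and 1 (5.56%) rose (median 0.06), both under the shares of all tested genes. That list had 2 rises without BHLHE22 replicate 1 or with DESeq2, and 3 with unscaled library sizes. MAP3K5, the gene of the stress kinase ASK1, had a log2 fold change of -1.53, CREB3L3 -1.53 and the pro-apoptotic gene BBC3 -0.75. MBTPS2, the gene of the protease that completes the cleavage of ATF6, was the riser at 0.85.

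**Figure D5:**
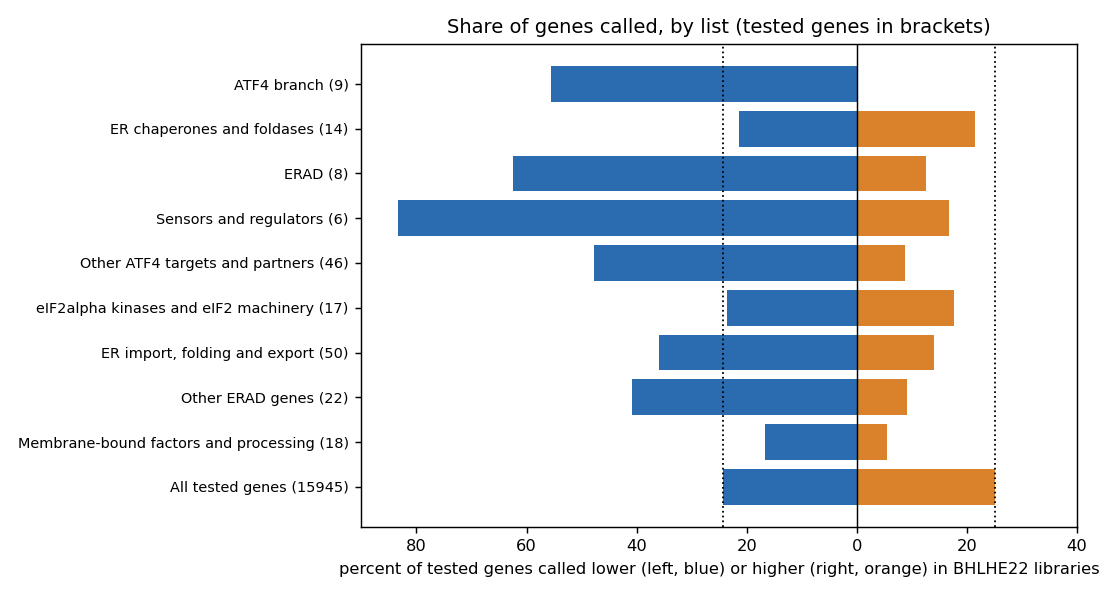
Percent of the tested genes of each list that were called lower (left) or higher (right) in BHLHE22 libraries; dotted lines mark the 24.3% lower and 25.1% higher of all tested genes. The ATF4 branch has no bar on the right, and the chaperones and foldases have bars of equal length, 21.4% each (2 lower and 5 higher of 14 with unscaled library sizes).

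Promoter sequences of the members were read for the classical stress elements, to set beside how the genes moved. Windows from 250 bases before to 50 bases after the start were taken from RefSeq (GRCh38.p14) and searched on both strands for 4 motifs. These were the ER stress element ERSE (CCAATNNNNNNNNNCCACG), ERSE-II (ATTGGNCCACG), the unfolded protein response element UPRE (TGACGTGG) and the element bound by ATF4 with C/EBP factors, CARE (TGATGNAA). Promoters were found for 35 members. ERSE was in 6 of them, 5 of these among 13 chaperone and foldase promoters, against 0.0806% of 27305 promoters. ERSE-II was in 3, against 0.0549%, and UPRE in 1, against 0.795%, where it overlaps an ERSE-II match. CARE was in 4, against 3.67%, and 2 of these were among the 9 promoters of the ATF4 branch. Over the 10496 promoters of tested genes the shares were 0.133% for ERSE, 0.105% for ERSE-II, 0.934% for UPRE and 1.61% for CARE. A match is no proof of binding, and other spellings of these elements were not searched. A single window per gene was read. The members were chosen as known genes of these responses, so the shares are no test of enrichment. The stretches with a match are given with the matched letters in capitals, in the direction of the gene, each with its coordinates.
HSPA5 (chr9:125241381-125241419, minus strand): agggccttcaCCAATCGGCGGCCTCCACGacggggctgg
HSP90B1 (chr12:103930206-103930349, plus strand): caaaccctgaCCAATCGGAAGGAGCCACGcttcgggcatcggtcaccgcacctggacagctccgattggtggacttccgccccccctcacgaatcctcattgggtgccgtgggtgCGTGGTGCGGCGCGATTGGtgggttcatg
CALR (chr19:12938374-12938412, plus strand): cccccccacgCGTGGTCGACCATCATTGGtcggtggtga
CANX (chr5:179698768-179698806, plus strand): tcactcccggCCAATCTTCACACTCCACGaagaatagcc
CRELD2 (chr22:49918544-49918582, plus strand): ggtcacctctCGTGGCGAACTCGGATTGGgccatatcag
XBP1 (chr22:28800593-28800631, minus strand): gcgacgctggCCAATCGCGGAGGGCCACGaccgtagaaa
SDF2L1 (chr22:21642104-21642134, plus strand): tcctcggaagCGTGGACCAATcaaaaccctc
HYOU1 (chr11:119057264-119057403, minus strand): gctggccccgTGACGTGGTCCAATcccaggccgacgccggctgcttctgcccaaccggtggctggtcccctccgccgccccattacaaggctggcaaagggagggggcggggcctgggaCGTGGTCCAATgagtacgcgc
HERPUD1 (chr16:56931956-56932045, plus strand): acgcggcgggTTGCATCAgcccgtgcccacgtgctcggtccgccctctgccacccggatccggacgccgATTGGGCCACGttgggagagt
CHAC1 (chr15:40953252-40953279, plus strand): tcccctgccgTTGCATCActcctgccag
ASNS (chr7:97872459-97872486, minus strand): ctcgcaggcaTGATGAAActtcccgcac
PPP1R15B (chr1:204412027-204412054, minus strand): ccgccccggcTGATGCAAcctcacgctg

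Genes with the same ER stress element differed in the direction of their log2 fold change, but the calls of those that rose did not hold in every fit. The 6 genes with an ERSE had log2 fold changes of -1.02 for XBP1, -0.47 for HSPA5, -0.34 for HSP90B1, 0.05 for CALR, 0.06 for CANX and 0.30 for CRELD2. Of these XBP1 fell, CRELD2 rose and 4 were not called. The call of CRELD2 ended in 8 of 13 other fits. The 3 with an ERSE-II had -1.34 for HERPUD1, -0.06 for HYOU1 and 0.36 for SDF2L1. HYOU1 was not called, and the call of SDF2L1 ended in 3 of 13 other fits. Among the 4 with a CARE, HERPUD1 (-1.34), PPP1R15B (-0.94) and CHAC1 (-0.88) fell and ASNS (-0.24) was not called. ATF4, TRIB3, SESN2 and STC2, which fell, hold none of these letters in their windows.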

How the data were processed

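RNA of PC-3 cells was sequenced in 6 libraries, 3 per group. The authors deposited whole-number read counts and FPKM values per gene in 1 table. Per the submitters' processing notes, CASAVA 1.8, HISAT2 2.1.0, StringTie 1.3.4b and edgeR were used with GRCh38 and hg38; the sources used here do not give their roles, the counting options or the use of strand. Dividing counts by the deposited FPKM gave a single length per gene, to within 0.1%, for 100% of tested genes. Columns headed control hold the vector libraries, and header numbers name the replicates.

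Genes kept by edgeR's filterByExpr (15945) were tested in R 4.3.3 by the quasi-likelihood test of edgeR 4.0.16 (robust, group as the only term, 2-sided), on counts with TMM-scaled library sizes. The Benjamini-Hochberg adjustment ran over all tested genes. CPM are counts over the scaled library size, and the SE is the size of the log2 fold change over the square root of F. An "edgeR adjusted p", or an adjusted p with no tool, is from this test. The alternatives were DESeq2's size factors, unscaled library sizes, DESeq2 1.42.0, limma-voom (limma 3.58.1), other filters, a replicate block, leaving out each library and a threshold of 0.01. The members and lists were chosen with earlier results of these data known. Full values are given for ATF4, DDIT3, XBP1, HSPA5 and called members with a log2 fold change of at least 0.5 in size; PDIA3, HSP90B1, EIF2AK4, PPP1R15A and ASNS were added after their values were seen. Each list of other genes adds up to 4 called genes with the smallest p. The procedure was tested on simulated data in which a small share of genes was changed, as many up as down. In these data 49.4% of tested genes were called, so that simulation cannot check the scaling or the calls in this setting. Positions of 37 of the 38 members are identical on GENCODE release 29; DDIT3 differs.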

Additional observations from a re-analysis of the deposited data

How the results depend on the processing

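No member reversed its direction with a call in any of 13 other fits, and 16 of the 23 called members were called in every one of them. The other 7 lost their call in at least 1 fit, and 5 of 14 members not called gained one. With unscaled library sizes 3 genes of the ATF4 branch fell, 5 chaperones and foldases rose with a median of 0.14, and the median of all members was -0.18. Without the low-count filter 3 genes of the ATF4 branch fell. With DESeq2, limma-voom or the replicate block 5 chaperones and foldases fell. With the replicate block 3 members rose. At a threshold of 0.01, 3 genes of the ATF4 branch fell, 1 chaperone and 2 members rose, and 2480 of all tested genes were higher and 2482 lower. Leaving out each library gave 3 to 5 falls in the ATF4 branch, 1 to 3 rises and 2 to 5 falls among the chaperones and foldases, and 2 to 4 rises among all members. The cause of these changes was not tested, apart from the stricter threshold and the fewer libraries themselves. Same-numbered libraries shared only a number: their deviations from the group means correlated at 0.00538, -0.0267 and 0.0105 for replicates 1 to 3, and not every library correlated best with its own number. The replicate block gave 3688 higher and 3604 lower genes, against 3996 and 3880 without it. With it the adjusted p was 0.0951 for STC2, 0.0599 for EIF2AK4 and 0.0759 for CRELD2, which were then not called, and 0.0206 for HSPA5 and 0.0476 for HSP90B1, which then were. With 3 libraries per group and SEs of 0.07 to 0.30, differences of the size of those of CANX or DDIT4 were not detectable.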
